A study of Mus musculus with 8 samples.

Results

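Neurexophilins, neurexins and neuroligins form an adhesion and signalling system of the synapse. The 9 genes described here are Nxph1, Nxph2, Nxph3 and Nxph4, which encode neurexophilins, Nrxn2 and Nrxn3, which encode neurexins, and Nlgn1, Nlgn2 and Nlgn3, which encode neuroligins. They were selected on gene family with their WT and Nkx2-1cKO signals already known, so their differences between the groups are given as a description without a test. The 9 genes were measured by 12 of the 41174 probes of the array, and all 12 were among the 31280 probes tested. A gene was found by matching the accession of each probe to a mouse gene symbol.

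RNA was measured in microdissected medial ganglionic eminence (MGE), the ventral forebrain zone that produces cortical and striatal interneurons, at E13.5. Total RNA of each of 8 samples was amplified with Cy3 as the label and hybridised to its own Agilent array. The 4 samples called WT here were labelled Nkx2-1flox/+;Olig2tva-cre- and the 4 called Nkx2-1cKO were labelled Nkx2-1flox/+;Olig2tva-cre+, so both groups carried a floxed allele of Nkx2-1 in strain C57BL/6 and differed in a Cre driven from Olig2. This label gives the mutant a heterozygous floxed genotype, while the study's methods name a homozygous floxed strain without saying which genotype went onto the arrays. Nkx2-1, the homeobox gene that specifies the MGE, read 1.87 ± 0.06 on the log2 scale in the WT arrays and -4.46 ± 0.19 in the mutant arrays (SD, n = 4 each), which left 1.24% of the WT signal. The labels do not say whether the samples of a group came from separate embryos or litters, so the spread between arrays may be technical.

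Signals are given as the log2 of the intensity relative to the 75th percentile of the same array, so that 0 is the level of that percentile. The arrays lay on 2 slides, with WT replicates 1 and 3 and Nkx2-1cKO replicates 2 and 4 on slide 1 and the others on slide 2. The share of probes well above background ran from 71.1% to 79.5% over the 8 arrays, and no spot was saturated. Dim probes were raised in WT replicate 1, where the lowest signal called well above background was -5.64, against -7.14 to -6.75 on the other 7 arrays. The number of arrays limits the precision. Signals of different probes were not compared with each other.

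Neurexins are receptors on the presynaptic membrane that bind neuroligins across the synaptic cleft. Neurexophilins are secreted glycoproteins that bind tightly to the extracellular part of α-neurexins. Nxph1 is known from scattered inhibitory neurons of the forebrain, and MGE-derived interneurons are among the earliest GABAergic neurons to reach the cortex.

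The promoters of Nxph1 and Nxph2 are shown because these were the members with the large differences. Each run holds the 250 bases before a RefSeq transcript start in GRCm38.p6, written 5′ to 3′ on the coding strand, and capitals mark a match to a searched motif. The Nxph1 sequence is chr6:8949769-8950018 on the plus strand and the Nxph2 sequence is chr2:23320996-23321245 on the plus strand. The Nxph2 run ends just before the start of the gene. The Nxph1 gene starts further upstream, at chr6:8948614, so its run lies inside the gene, before an internal transcript start.
Nxph1: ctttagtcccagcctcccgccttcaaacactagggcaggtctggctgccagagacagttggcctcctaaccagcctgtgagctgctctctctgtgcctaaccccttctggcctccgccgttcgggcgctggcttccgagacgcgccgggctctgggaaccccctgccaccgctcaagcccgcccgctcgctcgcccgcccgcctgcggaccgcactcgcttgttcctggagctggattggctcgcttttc
Nxph2: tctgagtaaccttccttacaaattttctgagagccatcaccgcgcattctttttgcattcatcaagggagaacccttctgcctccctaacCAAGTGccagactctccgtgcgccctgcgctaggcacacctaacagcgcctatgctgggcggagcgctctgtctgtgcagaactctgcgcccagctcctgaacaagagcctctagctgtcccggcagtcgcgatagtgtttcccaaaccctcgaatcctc
The Nxph2 run holds 1 match to CAAGTG, the core bound by NK homeodomain proteins such as NKX2-1, starting 160 bases before the transcript start. That motif, searched on both strands, was in 11.6% of 32851 RefSeq promoter windows of the same length, and its letters are also a form of the E-box CANNTG, so a match does not tell the factors apart. The Nxph1 run held no match, and the bases before the start of the Nxph1 gene were not searched. Neither run matched TAATTA, a core of LIM homeodomain proteins such as LHX6, present in 4.84% of the windows, nor TGACAG, a core of MEIS proteins, present in 15.9%, both strands searched. Of the other members, Nrxn3 had 3 promoter windows in the same RefSeq table, of which 1 held CACTTG, the reverse complement of the NK core, 195 bases before its start. The windows of Nlgn1 and Nlgn2 held none of the motifs. These matches are descriptions of letters and not of binding.

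Among the secreted ligands, Nxph1 and Nxph2 were far lower in the Nkx2-1cKO, while the groups overlapped for Nxph3 and Nxph4. The brighter of the 2 Nxph1 probes read 0.18, 0.25, 0.46 and 0.33 in WT replicates 1 to 4 and -1.67, -1.50, -1.76 and -1.93 in Nkx2-1cKO replicates 1 to 4. All mutant arrays lay below all WT arrays, with a wide gap and little spread within either group. The mean went from 0.31 ± 0.12 to -1.71 ± 0.18 (SD, n = 4 each), a difference of -2.02 (SE 0.11, 95% interval -2.27 to -1.77), which is 4.06-fold lower, or 24.7% of WT. The difference was -2.03 among the arrays of slide 1 and -2.01 among those of slide 2.

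The dimmer Nxph1 probe gave a like picture. It read -0.82, -0.77, -0.33 and -0.43 in WT and -2.62, -2.20, -2.96 and -3.0 in the Nkx2-1cKO. Again no arrays of the groups overlapped. The means were -0.59 ± 0.24 and -2.70 ± 0.37 (SD, n = 4 each), a difference of -2.11 (SE 0.19, 95% interval -2.54 to -1.68) or 4.31-fold lower. Within slides it was -2.03 and -2.19. Both probes read highest among the mutant arrays in Nkx2-1cKO replicate 2. Because whole tissue was measured, fewer cells that make a transcript and less of it per cell cannot be told apart, here or for any other gene.

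Nxph2, another neurexophilin, fell to near the background in the mutant arrays. It read -3.36, -2.61, -2.30 and -2.91 in WT and -6.66, -5.94, -6.01 and -6.39 in the Nkx2-1cKO. Every mutant array lay below every WT array. Its mean went from -2.80 ± 0.45 to -6.25 ± 0.34 (SD, n = 4 each), a difference of -3.45 (SE 0.26, 95% interval -4.04 to -2.87), or 11.0-fold lower, with 9.13% of the WT signal left. The probe was well above background on all 4 WT arrays and on 3 of the 4 mutant arrays, the exception being Nkx2-1cKO replicate 1, which also read lowest. The mutant signals lie close to the background, and the size of the fall is uncertain. It was -1.67 when the median signal was corrected with normexp at an offset of 50 and quantile normalized. That is less than the -1.80 and -1.76 of the Nxph1 probes under that setting. Quantile normalization of the deposited intensity alone gave -3.18. Whether the use of the median signal, the normexp correction or its offset moved it further was not tested. On the signals listed above, the fall was -3.33 on slide 1 and -3.57 on slide 2.

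Nxph3, a neurexophilin known from deep cortical layers, read 0.76, 1.32, 1.45 and 1.03 in WT and 1.27, 1.35, 1.57 and 1.39 in the Nkx2-1cKO. The mutant arrays fell within or just above the upper WT arrays, and WT replicate 1 was the lowest of all. The means of 1.14 ± 0.31 and 1.39 ± 0.13 (SD, n = 4 each) gave a difference of 0.25 (SE 0.15, 95% interval -0.08 to 0.59), and 0.13 without WT replicate 1. Nxph4, the fourth member of the family, read -0.41, -0.76, -0.59 and -0.22 in WT and -0.78, -0.47, -0.13 and -0.14 in the Nkx2-1cKO. These ranges overlapped over most of their width, and the difference was 0.11 (SE 0.17, 95% interval -0.27 to 0.49). The intervals for Nxph3 and Nxph4 thus reach neither the fall of Nxph1 nor that of Nxph2, but they leave room for a modest rise.

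**Figure D1:**
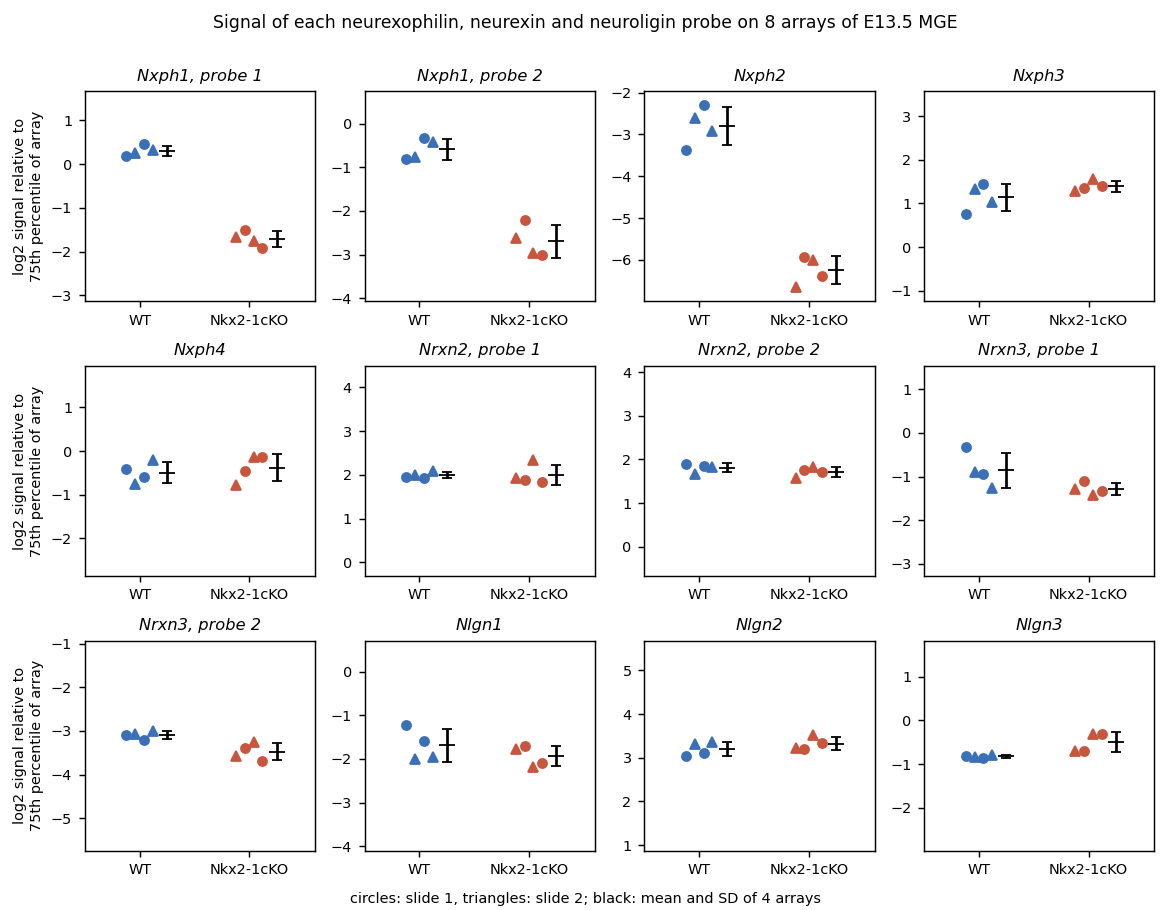
Log2 signal of each of the 12 probes relative to the 75th percentile of the array (y axis) in 4 WT (blue) and 4 Nkx2-1cKO (red) arrays. Circles stand for slide 1, triangles for slide 2 and black bars for the mean and SD. The panels span an equal range, except that of Nxph2, which spans slightly more. Wide gaps separate the groups for both Nxph1 probes and for Nxph2, while the points of the other panels lie at near or overlapping levels.

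The neurexins, the receptors to which neurexophilins bind, showed small differences. The brighter Nrxn2 probe read 1.96, 2.0, 1.93 and 2.08 in WT and 1.92, 1.89, 2.34 and 1.83 in the Nkx2-1cKO. The groups overlapped, and Nkx2-1cKO replicate 3 stood above the other 7 arrays. The means were 1.99 ± 0.07 and 1.99 ± 0.24 (SD, n = 4 each), with a difference of 0.00 (SE 0.12, 95% interval -0.26 to 0.26). The dimmer Nrxn2 probe differed by -0.09 (SE 0.09, 95% interval -0.29 to 0.10), from 1.81 ± 0.10 to 1.72 ± 0.11 (SD, n = 4 each), with overlapping arrays. The sign of the brighter probe's difference varied with the processing, from -0.11 to 0.12.

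Both Nrxn3 probes had a lower mean in the mutant, by about the same amount. The brighter read -0.31, -0.91, -0.95 and -1.26 in WT and -1.28, -1.10, -1.43 and -1.32 in the Nkx2-1cKO. WT replicate 4 lay among the mutant arrays and WT replicate 1 stood well above the rest. The means were -0.86 ± 0.40 and -1.28 ± 0.14 (SD, n = 4 each), a difference of -0.43 (SE 0.18, 95% interval -0.83 to -0.02), which was -0.24 without WT replicate 1. On the dimmer probe the arrays read -3.1, -3.07, -3.22 and -3.0 in WT and -3.57, -3.40, -3.24 and -3.68 in the Nkx2-1cKO. Here all mutant arrays were below all WT arrays, Nkx2-1cKO replicate 3 by only a small step. The difference was -0.37 (SE 0.13, 95% interval -0.67 to -0.08), or 77.2% of WT, and was -0.38 and -0.37 within the slides and -0.38 without WT replicate 1. Neither probe was called by the test across all probes. Neurexin genes make long and short transcripts from separate promoters with many splice forms, and the positions of the probes along them were not analysed here.

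The neuroligins, which bind neurexins from the postsynaptic side, had small differences in both directions. Nlgn1, known from excitatory synapses, read -1.21, -2.0, -1.60 and -1.96 in WT and -1.77, -1.71, -2.18 and -2.09 in the Nkx2-1cKO. The arrays overlapped, with WT replicate 1 the highest. The difference of -0.24 (SE 0.19, 95% interval -0.67 to 0.18) was -0.49 on slide 1 and 0.01 on slide 2, and -0.08 without WT replicate 1.

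Nlgn2, the neuroligin of inhibitory synapses, read 3.03, 3.31, 3.1 and 3.35 in WT and 3.22, 3.20, 3.52 and 3.33 in the Nkx2-1cKO. These arrays overlapped, and the difference was 0.12 (SE 0.10, 95% interval -0.12 to 0.35). Nlgn3, found at both kinds of synapse, read -0.81, -0.85, -0.86 and -0.79 in WT and -0.70, -0.70, -0.31 and -0.30 in the Nkx2-1cKO. It was the member whose mutant arrays all lay above all WT arrays, with Nkx2-1cKO replicates 3 and 4 well above and replicates 1 and 2 only slightly. The means were -0.83 ± 0.03 and -0.50 ± 0.23 (SD, n = 4 each), a difference of 0.32 (SE 0.12, 95% interval 0.06 to 0.58), or 125% of WT, and 0.33 and 0.31 within the slides. Nlgn3 was not called by the test across all probes.

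**Figure D2:**
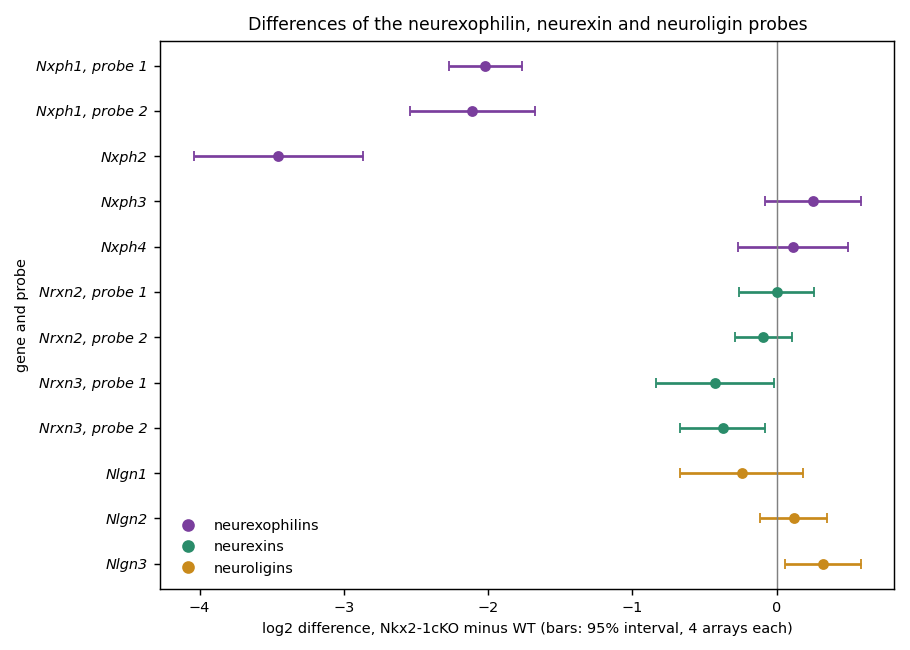
Difference of the mean log2 signal, Nkx2-1cKO minus WT (x axis), for each probe of the 9 genes (y axis), with points for the difference and bars for the 95% interval of 4 arrays against 4. The Nxph1 probes lie near -2 and Nxph2 at -3.45, and the other probes lie between -0.43 and 0.32.

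Of the 12 member probes, limma with adjustment over all tested probes called 3 lower (both of Nxph1 and that of Nxph2) and 0 higher, beside 0.614% of all tested probes called lower and 0.422% called higher. By the brightest probe of each gene 2 of 9 were called lower and 0 higher, beside 0.851% and 0.491% of all 14447 genes. Groups did not overlap for 4 member probes that were lower and 1 that was higher, while 4.11% and 2.29% of all tested probes had such gaps. Since the members were chosen with these values known, nothing is read from these counts. Over the 12 probes, 7 had a lower and 5 a higher mean, and their median difference was -0.17, beside -0.04 over all tested probes.

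**Figure D3:**
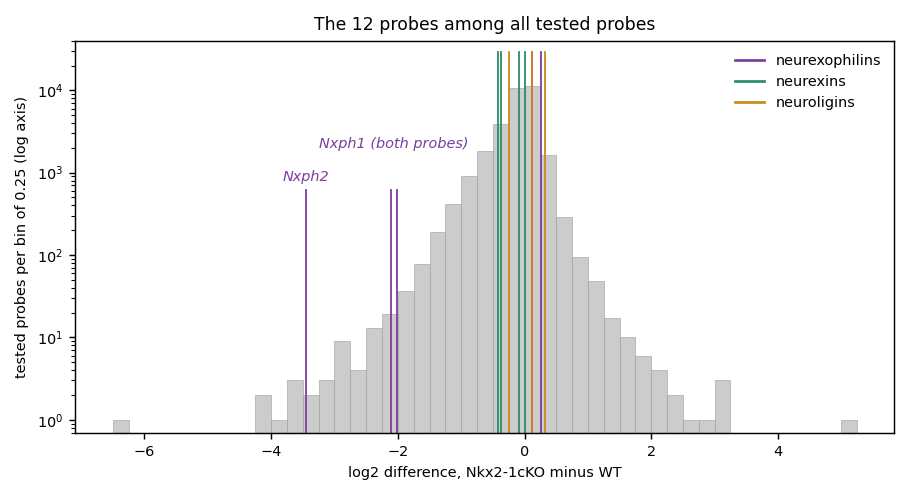
Number of tested probes per bin of the log2 difference, Nkx2-1cKO minus WT (x axis; bins of 0.25; log y axis), with a line for each of the 12 member probes coloured by family. Nxph2 and both Nxph1 probes lie in the sparse tail of falls, and the other 9 lie in the dense middle between -0.43 and 0.32.

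The other genes of the pathway did not pass the test. Their lists were also written with earlier results of these data known, so nothing is read from their counts. At the shares of all genes given next, a list of this size would mostly hold no call. Of 44 listed partner genes 41 were on the array and 40 were tested by their brightest probe, and limma called 0 lower and 0 higher, against 0.851% and 0.491% of all genes. At an unadjusted p under 0.05 there were 1 lower and 4 higher. The share of all genes or probes at that unadjusted cut is not given here. Counts at that cut, for these genes and the lists below, therefore have no background to be set against. The median difference over the 40 genes was 0.01, and the lowest adjusted p was 0.261. Over all 69 tested probes of these genes the counts were likewise 0 and 0, with 2 lower and 4 higher at an unadjusted p under 0.05.

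Among 19 extracellular neurexin ligands and partners the median difference was -0.06, and the range ran from -0.65 for Adgrl3 to 1.16 for Tafa4. Genes of this and the following lists were picked as examples after their values were seen. Tafa4, which encodes a small secreted protein of a family that binds neurexins, went from -5.83 ± 0.62 to -4.68 ± 0.37 (SD, n = 4 each), with SE 0.33 and adjusted p = 0.261 (limma). All mutant arrays were above all WT arrays for Tafa4, but the probe was well above background on only 3 of the 4 WT arrays. Cbln2, a cerebellin that links neurexins to glutamate receptors of the delta family, differed by 0.31 (adjusted p = 0.493, limma), and Cbln1 by -0.18 (adjusted p = 0.636, limma). The groups overlapped for both cerebellins.

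Inside the presynaptic terminal, the 6 listed partners of the neurexin tail had a median difference of -0.01, and Cask, a scaffold kinase that binds it, differed by 0.04 (SE 0.09, adjusted p = 0.894, limma). All of them overlapped between the groups. Among the 3 STAR-family RNA-binding proteins that regulate neurexin splicing, Khdrbs2 had all mutant arrays below all WT arrays. Its signal went from -0.12 ± 0.13 to -0.43 ± 0.05 (SD, n = 4 each), a difference of -0.31 (SE 0.09, adjusted p = 0.276, limma) that did not pass the threshold. Khdrbs1 and Khdrbs3 differed by -0.09 and 0.03, with overlapping groups.

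Of 12 tested neuroligin partners 9 had a higher mean in the Nkx2-1cKO, with a median of 0.07. For 3 of the 12 all mutant arrays were above all WT arrays, as they were for 408 of all 14447 genes. These were Mdga1, which encodes a protein that masks the neurexin site of neuroligins, with 0.34 (SE 0.15, adjusted p = 0.555, limma), the scaffold gene Dlg1, with 0.22 (SE 0.08, adjusted p = 0.487, limma), and Gphn, which encodes the inhibitory scaffold gephyrin, with 0.09 (SE 0.07, adjusted p = 0.673, limma). None of the 3 passed the threshold.

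Signals of cell type markers moved with the falls of Nxph1 and Nxph2. Of 13 tested markers of MGE-derived neurons, which include the deleted gene Nkx2-1 itself, 11 were called lower and 0 higher (limma), beside 0.851% and 0.491% of all genes, with a median difference of -1.65. The mean signal of the list ran from 1.29 to 1.38 in the WT arrays and from -0.87 to -0.76 in the mutant arrays. The part of this shift in the falls of Nxph1 and Nxph2 was not tested. This and the following marker lists were chosen with earlier results of these data known, so nothing is read from their counts of calls.

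Lists for neurons in general moved less. The 8 subpallial GABAergic markers, among them Gad1 and Gad2, which encode the enzymes of GABA synthesis, had a median difference of -0.10. The mean signal of that list ran from 2.86 to 2.98 over the WT arrays and from 2.75 to 2.88 over the mutant arrays. Of 15 general neuron markers 0 were called lower and 2 higher, against the same shares of all genes, and the median was 0.07. The 2 were neurofilament genes, Nefl with 0.85 and Nefm with 0.75. At an unadjusted p under 0.05 there were 3 lower (Dcx, Syt1 and Elavl4) and 2 higher (limma). The list's mean signal was 2.93 to 3.0 in WT and 2.98 to 3.15 in the Nkx2-1cKO. None of 10 markers of dividing progenitors was called, with a median of 0.12 and 1 higher and 0 lower at an unadjusted p under 0.05 (limma).

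Some markers of neighbouring territories were higher in the Nkx2-1cKO. Of 12 markers of the lateral and caudal ganglionic eminences (LGE and CGE) 5 were called higher and 0 lower (limma), beside 0.491% and 0.851% of all genes, with a median of 0.61 and a mean signal of -0.05 to 0.34 in WT and 0.48 to 0.90 in the Nkx2-1cKO. The 5 were Meis2, Ebf1, Zfp503, Foxp2 and Tac1. Foxp1, Penk, Drd2 and the CGE factors Sp8, Nr2f1, Nr2f2 and Prox1 did not pass. At an unadjusted p under 0.05 there were 8 higher and 0 lower in this list (limma), again without the share of all genes beside them. The Nr2f1 probe split by slide, with -0.57 to -0.19 on slide 1 and -3.22 to -2.79 on slide 2. Its difference of 0.10 thus had a wide 95% interval (-1.76 to 1.96), and the split also enters the mean signal of the list. Among oligodendrocyte precursor markers 2 of 4, Olig1 and Pdgfra, were called lower, beside 0.851% of all genes. The part of either list in the values above was not tested. The mesenchyme list, with none of 5 called by limma and 1 lower at an unadjusted p under 0.05, had a mean signal of 0.19 in WT replicate 4, of -3.98 to -2.35 in the other WT arrays and of -4.33 to -2.33 in the mutant arrays. Without WT replicate 4 the differences of the Nxph1 probes were -2.01 and -2.06 and that of Nxph2 was -3.49, about as large as with it. No marker of erythroid cells, endothelium, microglia, pallium or radial glia was called by limma, and at an unadjusted p under 0.05 there was 1 lower among the radial glia markers and 0 in the other 4 lists.

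**Figure D4:**
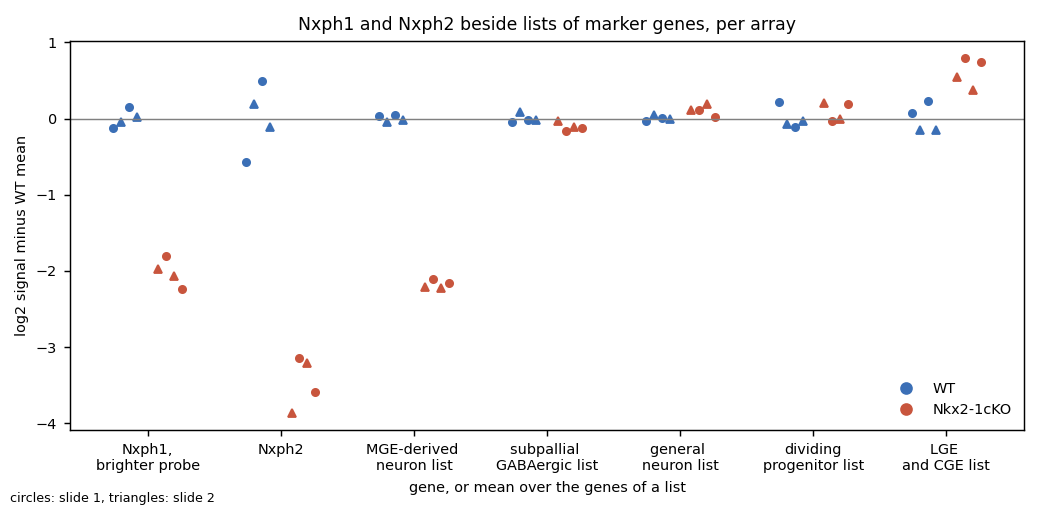
Log2 signal minus the WT mean (y axis) on each of 4 WT (blue) and 4 Nkx2-1cKO (red) arrays for Nxph1, Nxph2 and the mean over the genes of 5 marker lists (x axis), with circles for slide 1 and triangles for slide 2. Nxph1, Nxph2 and the list of MGE-derived neurons drop in all 4 mutant arrays, the LGE and CGE list is higher in them, and the lists for GABAergic neurons, neurons in general and dividing progenitors stay within 0.3 of the WT mean.

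The genes whose signals over the 8 arrays were most like those of Nxph1 and Nxph2 were ranked by Pearson correlation among 14411 genes. The arrays fall into the WT and mutant groups, so these values mainly follow the group difference, and they are a description without a test. Closest to the brighter Nxph1 probe were Maf (r = 0.996), a transcription factor of MGE-derived interneurons, Tacr1 (0.995), the substance P receptor gene, Npy (0.993), a neuropeptide gene, Lhx6 (0.993), the LIM homeobox gene of the lineage, and Cbr3 (0.993), a carbonyl reductase gene. Their log2 differences were -2.51, -1.39, -3.53, -4.20 and -1.64, in that order.

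For Nxph2 the closest genes were Sst (r = 0.995), which encodes somatostatin, Lypd6b (0.994), Dgkg (0.993), a diacylglycerol kinase gene, Elfn1 (0.990), a synaptic adhesion gene of somatostatin interneurons, and Maf (0.990). Their log2 differences were -1.73, -1.24, -2.21, -1.90 and -2.51. All 9 of these genes were called lower by limma, beside 0.851% of all genes, and Maf stood in both rankings. The ranking picks genes that fell with Nxph1 and Nxph2, so nothing is read from this count. With Lhx6, Maf, Npy and Sst, 4 of the 9 also belong to the list of MGE-derived neurons.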

How the data were processed

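RNA of MGE from 4 WT and 4 Nkx2-1cKO samples was measured on 1-colour Agilent arrays. The authors deposited the Feature Extraction output, in which the intensity of each spot was background-subtracted and detrended within its array but not scaled between arrays. The submitters' processing notes name version 10.1 of that software and the file headers name 10.7.3.1. After removal of control spots and spots with an outlier flag, the deposited intensity was divided by the 75th percentile of its array, put on the log2 scale and averaged over the spots of a probe. Accessions tied 24844 of the 41174 probes to 17178 symbols of a RefSeq table (GRCm38.p6). Probes that rose well above background on 4 or more of the 8 arrays were compared with limma 3.58.1 (lmFit, eBayes with a trend) under R 4.3.3, with Benjamini-Hochberg adjustment over 31280 probes at a threshold of 0.05, after a test of the procedure on simulated data. Where a gene is counted once, the brightest of its tested probes on average stands for it. SE and 95% intervals come from the same fit.

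The members and the gene lists were chosen with earlier results of these data known. The genes named are every member probe, any partner gene past the threshold, the 5 genes most correlated with Nxph1 and with Nxph2, and Nkx2-1, with examples from the lists added after their values were seen. The alternatives were quantile normalization, median centring, testing every probe, keeping the upper 60% of probes by mean signal, slide as a block, the replicate block, array weights, a fit without the variance trend, averaging the probes of each gene, and omitting each array. The planned normexp correction on the mean signal was run with offset 50 on the median signal instead, a choice made after seeing the data. No other setting used the median signal. Promoter sequences are from RefSeq, which had windows for 5 of the 9 genes. Some results, among them the calls of single genes of the subpallial GABAergic list, are not reported here, and other assays of the study were not analysed.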

Additional observations from a re-analysis of the deposited data

Results flagged for a closer look

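A search for a single array standing apart in 44 groups of 4 arrays found 2 cases, and about 2.2 would come by chance. The brighter Nrxn2 probe read 2.34 in Nkx2-1cKO replicate 3, against 1.83 to 1.92 in the other mutant arrays. Maf read -1.82 in Nkx2-1cKO replicate 2, against -2.36 to -2.29 in the other mutant arrays.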

How the results depend on the processing

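The members were chosen with these values known, so their calls are a description. The differences of Nxph1 and Nxph2 were negative under every setting that was run. They ranged from -2.09 to -1.80 and from -2.27 to -1.76 for the Nxph1 probes and from -3.64 to -1.67 for Nxph2, with the smallest falls after normexp correction, added after seeing the data. With 1 array left out in turn the ranges were -2.09 to -1.95, -2.27 to -2.01 and -3.64 to -3.29. The dimmer Nrxn3 probe differed by -0.21 after normexp, and the dimmer Nrxn2 probe by 0.03 with median centring, which moved the median of all tested probes from -0.04 to 0.08. No partner gene passed the threshold under any of these settings. With the replicate block, 3 member probes were called lower and 0 higher, while calls over all probes went from 192 lower and 132 higher to 65 and 8. Deviations from the group means were opposed in arrays sharing a number (r from -0.481 to -0.194). Arrays sharing a number always lay on different slides, so these correlations cannot tell whether the numbers are a pairing. Other settings gave 115 to 289 lower and 64 to 209 higher calls over all probes. Without WT replicate 1, whose dim probes were raised, the differences of the brighter Nrxn3 probe and of Nlgn1 were -0.24 and -0.08.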
